A study of Mus musculus with 35 samples.

Results

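The nuclear-encoded subunits of the mitochondrial respiratory chain were examined in mouse tissues. Members were the protein-coding genes whose symbol begins with Ndufa, Ndufb, Ndufc, Ndufs, Ndufv, Uqcr, Cox4 to Cox8 or Atp5, together with Sdha to Sdhd. The rule matched 94 ENSEMBL genes with 93 symbols, out of 55356 counted rows. Of the 93 genes, 83 encode subunits (36 of complex I, 4 of complex II, 8 of complex III, 19 of complex IV and 16 of complex V), 8 are complex I assembly factors of the Ndufaf series, and the others are Cox7a2l, a supercomplex assembly factor, and Atp5s, the coupling factor B. Ndufa4 and its relative Ndufa4l2 carry complex I names and were counted with complex IV, where Ndufa4 is known to reside. The members lie on 19 chromosomes, 3 of them on the X chromosome. For 72 members the count was taken from a locus assembled from long reads (Iso-seq), and for 21 from the ENSEMBL gene. The data were 29 RNA-seq libraries of rRNA-depleted total RNA from adult C57BL/6J mice, in 10 groups: female and male brain, cerebellum, heart and colon, and the female and male gonads (ovary and testis). Each group held 3 libraries except male heart, which held 2. No genetic change or treatment is given in the labels, and they do not say which libraries came from the same animal, so the p-values measure the spread between these libraries. Iso-seq of gonads and of pooled somatic tissues entered only through the annotation.

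The respiratory chain sits in the inner mitochondrial membrane. Complexes I and II pass electrons from NADH and succinate to ubiquinone, complex III passes them to cytochrome c, complex IV (cytochrome c oxidase) passes them to oxygen, and complex V (ATP synthase) uses the proton gradient so formed to make ATP. The catalytic centres of complex IV and parts of complexes I, III and V are encoded by mitochondrial DNA, and all remaining subunits by nuclear genes. Heart muscle is dense in mitochondria, and several small subunits of complex IV exist as alternative genes, with forms known from heart and skeletal muscle (Cox6a2, Cox7a1, Cox8b) and from testis (Cox6b2, Cox7b2, Cox8c).

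Library totals ranged from 11742417 counts to 36194255 counts, with the lowest in colon. Levels are given as FPKM, here the CPM (counts scaled to the library total) per kilobase of the exons of the counted row. The labelled tissues carried their markers: summed over the marker genes, cardiomyocyte genes stood at 18510 to 41450 FPKM in heart libraries and at 12.5 to 16.1 FPKM in brain, and male germ cell genes at 9054 to 10070 FPKM in testis. One library stood apart. Female heart replicate 3 held 695 FPKM of Adipoq, a fat cell hormone, against 0.0517 to 1.74 FPKM in the other 4 hearts, and 2770 FPKM of Nppa, an atrial hormone gene, against 41.1 to 90.1 FPKM, while Myl2, a ventricular myosin light chain, was at 8547 FPKM against 15550 to 26320 FPKM. Of the 93 members, 74 were lower in it than in every other heart library and 4 were higher (Cox6a1, Cox6b2, Cox8a and Ndufaf7), with a median ratio of 0.708 to the median of the others. Values for heart include it unless stated otherwise. The 4 blood genes summed to 6314 to 22150 FPKM in heart, against 311 to 1542 FPKM in brain, and their part in the heart values was not tested. The sums of the smooth muscle (671 to 1466 FPKM), skeletal muscle (794 to 2196 FPKM) and fat lists (379 to 3223 FPKM) were also above brain, but in the 4 hearts other than female replicate 3 they lay mostly in Des (1091 to 1409 FPKM), in Ckm (1424 to 1803 FPKM) with Acta1, and in Fabp4 (358 to 495 FPKM). Des, Ckm and Acta1 are known from heart muscle itself. In those 4 hearts some other genes of the lists were near 0, with Myh11 at 0.678 to 2.42 FPKM, Cnn1 at 0.0661 to 0.661 FPKM, Myh4 at 1.65 FPKM or less, Plin1 at 0.524 FPKM or less and Ucp1 at 0. Others were not, with Acta2 at 44.8 to 95.7 FPKM and Cidea at 15.0 to 21.4 FPKM. The part of such cells in the heart values was not tested. In female heart replicate 3 Plin1 stood at 92.3 FPKM and Ucp1 at 63.6 FPKM. In bulk tissue, fewer cells of a type and less RNA per cell cannot be told apart.

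The summed level of the subunits of every complex was several times higher in heart than in the other tissues. Summed over its 36 subunits, complex I had a mean ± SD of 2833 ± 203 FPKM in the 6 brain libraries, 3123 ± 214 FPKM in the 6 of cerebellum, 2496 ± 360 FPKM in colon (n = 6), 2378 ± 215 FPKM in ovary (n = 3), 1816 ± 68.3 FPKM in testis (n = 3) and 11550 ± 2972 FPKM in heart (n = 5). The lowest heart library had 7840 FPKM and the highest of all other libraries 3436 FPKM, so the groups did not overlap. The ratio of the heart mean to the mean of brain, cerebellum and colon was 4.10 for complex I, 3.61 for complex II, 4.22 for complex III, 4.36 for complex IV and 4.18 for complex V. Without female heart replicate 3 they were 4.43, 3.86, 4.54, 4.71 and 4.51. No test of a difference between complexes was made. Testis lay at the other end, with ratios of 0.645, 0.425, 0.599, 0.519 and 0.451 for complexes I to V. Ovary was between testis and the somatic tissues, with ratios of 0.844, 0.779, 0.763, 0.656 and 0.849. Scaling the libraries by TMM factors (trimmed mean of M values, from edgeR) in place of their totals gave 5.40 to 6.57 for the same ratios in heart, 0.522 to 0.788 in testis and 0.511 to 0.667 in ovary, and moved ovary below testis for complexes I, III and IV.

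**Figure D1:**
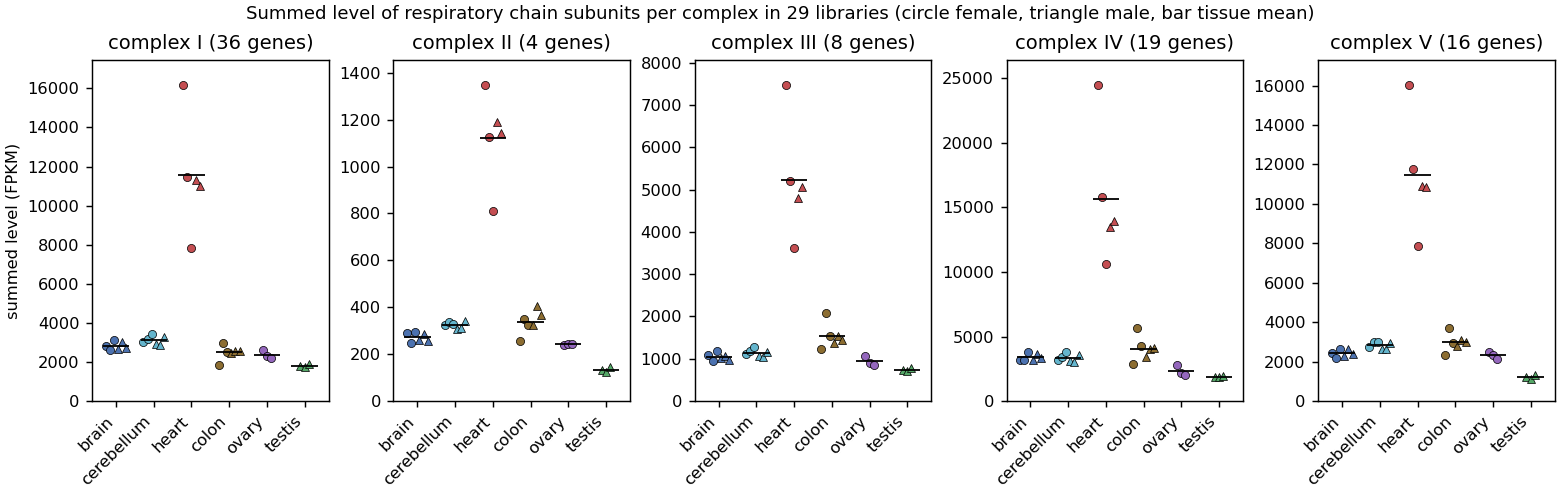
Summed FPKM of the nuclear-encoded subunits of complexes I to V in each library, grouped by tissue, with circles for female and triangles for male libraries and a bar at the tissue mean. Every heart library lies above every other library for each complex, with complex I at 7840 FPKM in the lowest heart library and at 3436 FPKM in the highest of the others, and testis has the lowest means.

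All 93 members passed the filter on low counts, Cox8c through testis, where nearly all of its counts lay. In heart against brain, cerebellum and colon, 88 members were called higher and 3 lower (adjusted p below 0.05, by the quasi-likelihood test of edgeR adjusted by Benjamini-Hochberg over the 29911 genes tested), where 23.6% of all genes tested were higher and 29.5% lower. The median log2 difference of the members was 2.57 (2.59 with Cox8c left out, which had no count in heart), against -0.33 over all genes tested. All 36 complex I subunits were higher (median log2 difference 2.67), as were the 4 of complex II (2.39), the 8 of complex III (2.73) and the 16 of complex V (2.69). In complex IV 14 of 19 were higher (median 2.54). The 8 Ndufaf assembly factors, which help to build complex I and leave it, were all higher but by less, with a median log2 difference of 1.01. With library totals in place of TMM, 83 members were higher and 4 lower, and Cox7a2, Ndufaf2, Ndufaf3, Ndufaf5 and Ndufaf7 were not called, with medians of 1.98 for members and -0.76 for all genes. Without female heart replicate 3, 88 were higher and 3 lower, with a median of 2.76 over all members and of 2.85, 2.56, 2.90, 2.74 and 2.88 for complexes I to V, and 1.17 for the assembly factors. On levels scaled by library totals, every heart library was above every one of the other 24 libraries for 77 of the 93 members (82.8%), where 3.43% of all genes tested had this pattern. The same count without female heart replicate 3, an alternative chosen after seeing the data, was 77, with a background of 3.95%. No member had every heart library below every other library, against 2.86% of all genes tested.

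The core subunits, which carry the cofactors and catalytic sites or hold the complexes together, were all higher in heart (20 of 20, median log2 difference 2.67). Of all genes tested, 23.6% were higher and 29.5% lower. Ndufs1, the largest iron-sulfur subunit of complex I, stood at 277, 283 and 193 FPKM in the female hearts and at 315 and 298 FPKM in the male hearts. In brain it ranged from 57.7 FPKM to 71.8 FPKM (median 61.3 FPKM), in cerebellum from 67.9 FPKM to 76.6 FPKM and in colon from 49.0 FPKM to 62.5 FPKM. All heart libraries were above all others, and its log2 difference was 2.69 (SE 0.116). Sdhb, the iron-sulfur subunit of succinate dehydrogenase, had the largest difference of the core subunits. It stood at 363, 286 and 183 FPKM in female hearts and at 388 and 282 FPKM in male hearts, against 34.1 FPKM to 48.8 FPKM in brain and 34.6 FPKM to 70.7 FPKM in colon. Its log2 difference was 3.35 (SE 0.154, adjusted p = 6.17e-16 by edgeR's quasi-likelihood test), a fold of 10.2. Sdha, the flavoprotein of the same complex, had the smallest at 2.16 (SE 0.122). Atp5b, the catalytic beta subunit of ATP synthase, stood at 2526 ± 529 FPKM in heart (SD, n = 5), against 614 ± 49.8 FPKM in brain (n = 6), 780 ± 20.7 FPKM in cerebellum (n = 6) and 610 ± 107 FPKM in colon (n = 6). Its log2 difference was 2.51 (SE 0.144). Without female heart replicate 3 the differences were 2.85 for Ndufs1, 3.53 for Sdhb, 2.31 for Sdha and 2.69 for Atp5b, all still called.

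**Figure D2:**
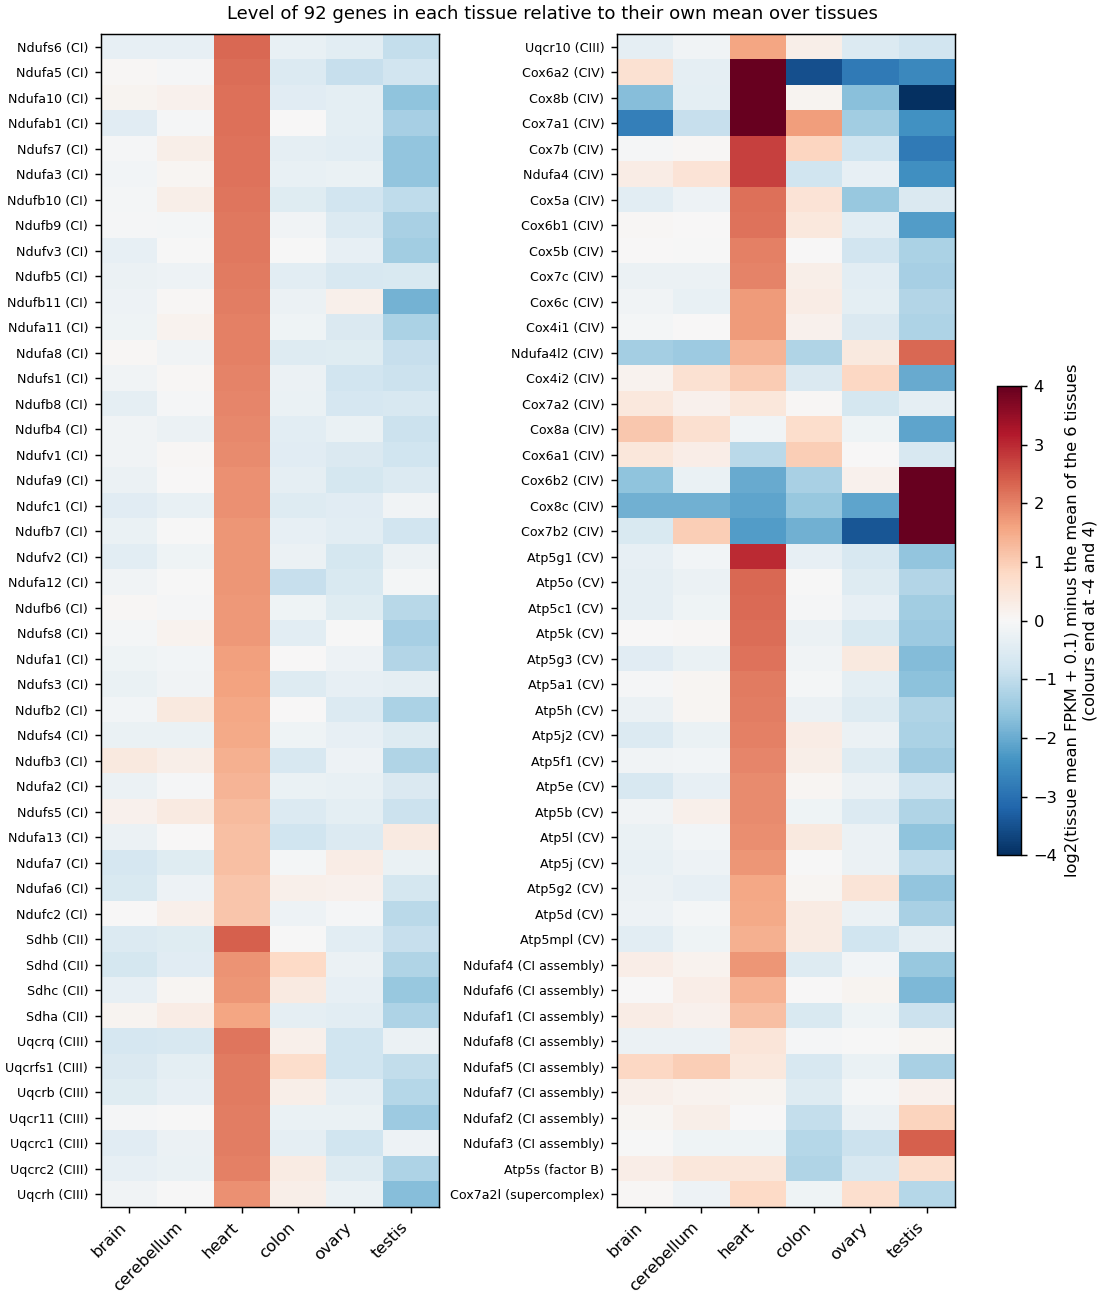
Tissue mean of 92 of the 93 genes as log2(FPKM + 0.1) minus the mean over the 6 tissues, ordered by complex, with colours ending at -4 and 4. With levels scaled by library totals, 82 of the 93 genes are highest in heart and 66 lowest in testis. These counts were not made with TMM factors. The rows not highest in heart belong to complex IV, the assembly factors and Atp5s, with Cox6b2, Cox7b2 and Cox8c highest in testis.

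The largest differences in heart belonged to the muscle forms of complex IV. Cox6a2 stood at 2582, 2137 and 787 FPKM in female hearts and at 1275 and 1863 FPKM in male hearts. Its highest value elsewhere was 10.4 FPKM, in brain, and colon, ovary and testis were near 0, with means of 0.274 ± 0.153 FPKM (SD, n = 6), 0.511 ± 0.285 FPKM (n = 3) and 0.626 ± 0.402 FPKM (n = 3). The log2 difference of Cox6a2 was 10.52 (SE 0.259, adjusted p = 4.63e-21 by edgeR's quasi-likelihood test). Cox8b, the muscle form of the smallest subunit, stood at 1696, 1035 and 649 FPKM in female hearts and at 677 and 763 FPKM in male hearts, and its log2 difference was 9.37 (SE 0.269). It had 3 counts in the 3 testis libraries together, and heart exceeded testis by a ratio of 10600 (95% interval 3640 to 51600, counting error only). Cox7a1 stood at 1832, 1016 and 577 FPKM in female hearts and at 787 and 897 FPKM in male hearts. It was also present in colon, from 31.8 FPKM to 92.9 FPKM (median 56.7 FPKM). Its log2 difference in heart was 7.06 (SE 0.245). The summed smooth muscle markers were 4208 to 12310 FPKM in colon, and their part in its Cox7a1 was not tested. Atp5g1, one of the genes for the c subunit of the ATP synthase rotor, came next at 3.84 (SE 0.156). Without female heart replicate 3 the differences were 10.75 for Cox6a2, 9.57 for Cox8b, 7.28 for Cox7a1 and 4.04 for Atp5g1, all still called.

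Cox6a1 and Cox8a, the ubiquitous partners, were lower in heart. Cox6a1 stood at 82.1, 73.6 and 150 FPKM in female hearts and at 74.0 and 66.0 FPKM in male hearts, against 209 FPKM to 294 FPKM in brain (median 257 FPKM) and 236 FPKM to 503 FPKM in colon (median 373 FPKM). Every heart library was below every brain and colon library, and the log2 difference was -1.22 (SE 0.167, adjusted p = 5.54e-07 by edgeR's quasi-likelihood test). Cox8a, at 117, 104 and 177 FPKM in female and 74.4 and 83.1 FPKM in male hearts, was lower by less, with a log2 difference of -0.57 (SE 0.152). Female heart replicate 3 was the highest heart library for both genes and the lowest for Cox6a2, Cox8b and Cox7a1. Without it the differences were -1.25 for Cox6a1 and -0.55 for Cox8a, both still called. The third member called lower was Cox6b2 (-0.55, SE 0.160), which stood near 1 FPKM or below in heart and brain. Its call rested on 1 library, since without male heart replicate 1 it differed by -0.46 (adjusted p = 0.0571 by edgeR's quasi-likelihood test). Cox7b2 and Cox8c were not called.

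Ratios within pairs were compared over libraries as log2 of (count + 0.5) per kilobase, by exact permutation over every choice of 5 (heart) or 3 (testis) libraries among the 29, two-sided, with 20 tests adjusted together. In heart the ratio of Cox6a2 to Cox6a1 was higher than in the other libraries by 11.64 and that of Cox8b to Cox8a by 10.07 on the log2 scale (each exact p = 8.42e-06, the smallest this design allows, adjusted p = 5.61e-05). Cox6a2 made up 93.7 ± 5.54% of Cox6a1 plus Cox6a2 in heart (SD, n = 5) and 2.49 ± 0.805% in brain (n = 6). Cox8b made up 88.6 ± 5.82% of Cox8a plus Cox8b in heart and 2.12 ± 1.77% in colon (n = 6). No ratio or share is given for the pairs with Cox4i1, Cox6b2 and Cox7a2, since the counted locus of each also holds another gene (Tmem30a in that of Cox7a2). Over the 4 hearts other than female replicate 3 these shares were 96.2 ± 1.12% and 91.2 ± 1.61%, and the ratios of both pairs differed by 12.10 and 10.38 (adjusted p = 0.000326 each, exact permutation test). The rotor genes shifted by less. The ratio of Atp5g1 to Atp5g3 was higher in heart by 0.90 (adjusted p = 0.000608, exact permutation test) and that of Atp5g2 to Atp5g3 differed by -0.70 (adjusted p = 0.000295).

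The coding sequences of the Cox8 genes are shown because the counts depend on telling these genes apart. They come from GENCODE on GRCm38, and capitals mark the 58 bases that are identical in all 3 genes after alignment. Cox8a lies at chr19:7215389-7217512, minus strand, Cox8b at chr7:140898988-140900342, minus strand, and Cox8c at chr12:102899366-102900337, plus strand, each with 2 coding exons.
Cox8a: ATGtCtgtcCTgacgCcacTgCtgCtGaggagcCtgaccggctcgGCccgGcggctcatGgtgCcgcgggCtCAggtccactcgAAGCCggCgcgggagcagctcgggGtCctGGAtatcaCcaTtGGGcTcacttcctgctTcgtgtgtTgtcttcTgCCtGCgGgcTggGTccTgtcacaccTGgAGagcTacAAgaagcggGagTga
Cox8b: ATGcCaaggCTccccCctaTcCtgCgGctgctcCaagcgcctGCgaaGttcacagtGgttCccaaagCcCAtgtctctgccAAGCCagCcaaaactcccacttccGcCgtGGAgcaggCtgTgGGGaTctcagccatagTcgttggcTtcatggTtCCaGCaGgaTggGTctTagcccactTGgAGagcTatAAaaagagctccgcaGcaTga
Cox8c: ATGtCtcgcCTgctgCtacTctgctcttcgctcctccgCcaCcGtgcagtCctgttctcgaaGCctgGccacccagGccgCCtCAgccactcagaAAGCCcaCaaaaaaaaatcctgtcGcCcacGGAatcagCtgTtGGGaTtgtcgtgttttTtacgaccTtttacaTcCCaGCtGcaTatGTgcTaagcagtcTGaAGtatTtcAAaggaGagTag
Over aligned bases Cox8a and Cox8b were 51.2% identical, Cox8a and Cox8c 47.8%, and Cox8b and Cox8c 42.4%. Of the other pairs, Cox6a1 and Cox6a2 were 60.8% identical, Cox7a1 and Cox7a2 62.6%, and Atp5g1 and Atp5g2 71.3%, the highest among the pairs. Only reads that map to 1 place were counted.

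**Figure D3:**
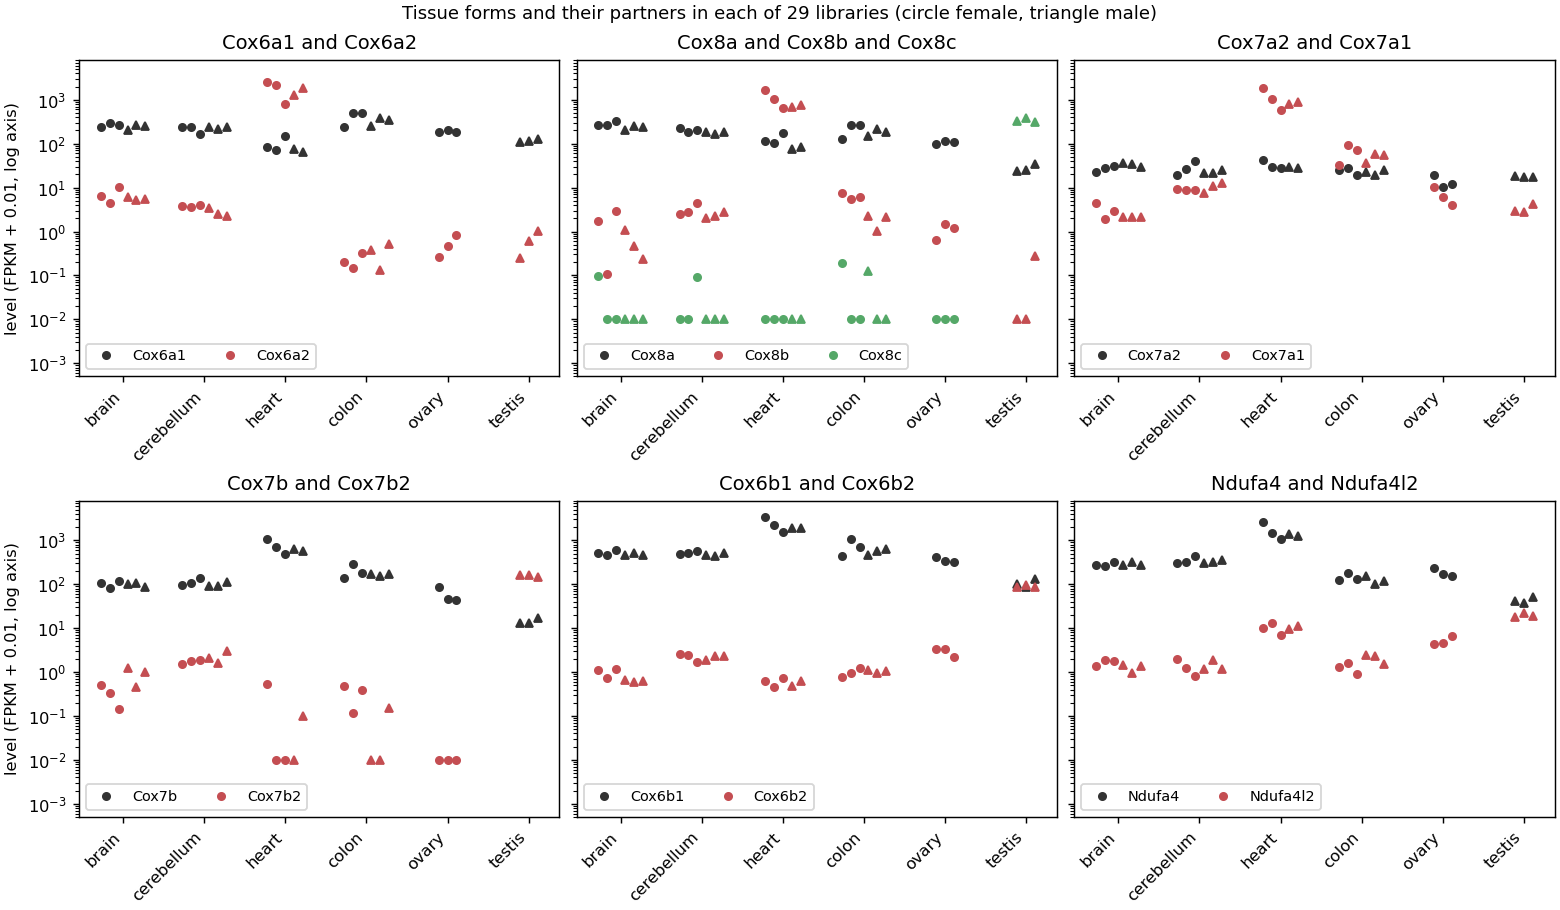
FPKM + 0.01 on a log axis for 6 sets of paired genes of complex IV by tissue, with circles for female and triangles for male libraries, and points at 0.01 have no count. Cox6a2, Cox7a1 and Cox8b are high in heart, with Cox8b at 649 FPKM in the lowest heart library, and Cox6b2, Cox7b2 and Cox8c are high in testis.

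In testis most members were lower and a small set was much higher. Against brain, cerebellum, heart and colon, 9 members were higher and 75 lower, where 40.7% of all genes tested were higher and 26.6% lower, and the median log2 difference was -1.35 against 0.12 over all genes. Since heart is part of that reference, the comparison was also made against brain, cerebellum and colon alone, a choice made after seeing the data. Then 11 were higher and 56 lower (background 40.4% and 28.3%), with a median of -0.78. Both counts of higher members include Cox8c, which passed the filter only through testis, and are 8 and 10 without it. The 20 core subunits had a median of -0.84, with 14 lower, 6 not called and none higher. Atp5a1, the alpha subunit of ATP synthase, differed by -1.33 (SE 0.220) and Sdhc, a membrane anchor of complex II, by -1.27 (SE 0.218). Uqcrc1, a core protein of complex III, stood at 143, 145 and 160 FPKM in testis and was not called (0.42, adjusted p = 0.0732 by edgeR's quasi-likelihood test), but was called higher with RLE scaling (0.56, adjusted p = 0.0137), with DESeq2 (adjusted p = 0.0131) and without female heart replicate 3 (adjusted p = 0.0101). On levels scaled by library totals, all testis libraries were below all other libraries for 50 of the 93 members (53.8%), where the share over all genes was 7.5%. This count was not repeated with TMM factors. With those, the sums of complexes I, III and IV were lower in ovary than in testis. For 6 members all testis libraries were above all others, where the share over all genes was 23.3%: Cox6b2, Cox7b2, Cox8c, Ndufa4l2, Ndufaf2 and Ndufaf3 (5 without Cox8c). The male germ cell markers that mark testis, such as Prm1 and Tnp1, were summed to 9054 FPKM and more in testis, against at most 35.9 FPKM in heart, and their part in these values was not tested.

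Cox8c stood at 324, 380 and 310 FPKM in testis. It had 13967 counts there against 4 in the 23 libraries of brain, cerebellum, heart and colon, a ratio of 20100 (95% interval 7870 to 73900, counting error only). No count was found in heart or ovary, which with a floor of 3 counts over the group puts testis at least 5870-fold higher than heart and at least 3670-fold higher than ovary. Cox8a, its ubiquitous partner, was lower in testis, at 24.1, 25.7 and 34.5 FPKM against 209 FPKM to 329 FPKM in brain, with a log2 difference of -2.65 (SE 0.219) from brain, cerebellum and colon. Cox7b2 stood at 162, 161 and 147 FPKM, against 1.53 FPKM to 3.09 FPKM in cerebellum and none in ovary (testis at least 2010-fold higher). Cox7b, its X-linked partner, stood at 13.1, 13.4 and 16.9 FPKM in testis and at 80.7 FPKM to 117 FPKM in brain (-2.82, SE 0.313). Cox6b2 stood at 88.2, 94.2 and 85.3 FPKM, where the counted locus also holds Fam71e2, and differed by 6.50 (SE 0.127). Cox6b1 stood at 99.2, 85.4 and 130 FPKM in testis, against 463 FPKM to 610 FPKM in brain (-2.09, SE 0.291). In each of these 3 pairs the testis form was higher and the ubiquitous form lower.

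The ratio of Ndufa4l2 to Ndufa4 was higher in testis by 5.92 than in the other 26 libraries (exact permutation p = 0.000274, the smallest this design allows, adjusted p = 0.000608). For testis no difference or test is given for the ratios of Cox8c and Cox7b2, since these genes had no count in 22 and 8 of the other 26 libraries and the 0.5 added to the counts would set their size. Cox8c made up 92.2 ± 1.99% of Cox8a plus Cox8c in testis (SD, n = 3), Cox7b2 91.5 ± 1.6% of Cox7b plus Cox7b2, and Ndufa4l2 31.4 ± 5.00% of Ndufa4 plus Ndufa4l2. Ndufa4l2, a gene known to be induced by low oxygen, stood at 18.3, 21.8 and 18.5 FPKM in testis, 4.42 FPKM to 6.56 FPKM in ovary, 7.09 FPKM to 12.9 FPKM in heart and 0.923 FPKM to 1.85 FPKM in brain. It was thus raised in heart and in testis. Ndufa4 had the opposite order between these tissues, at 1561 ± 611 FPKM in heart (SD, n = 5) and 43.2 ± 6.87 FPKM in testis (n = 3).

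The pair Cox7b and Cox7b2 is printed because its members differ in exon structure. Cox7b lies at chrX:106015831-106021823, plus strand, with 3 coding exons, and Cox7b2 at chr5:71442965-71443213, minus strand, with 1. Capitals mark the 156 bases identical in both after alignment (64.2% of the aligned bases).
Cox7b: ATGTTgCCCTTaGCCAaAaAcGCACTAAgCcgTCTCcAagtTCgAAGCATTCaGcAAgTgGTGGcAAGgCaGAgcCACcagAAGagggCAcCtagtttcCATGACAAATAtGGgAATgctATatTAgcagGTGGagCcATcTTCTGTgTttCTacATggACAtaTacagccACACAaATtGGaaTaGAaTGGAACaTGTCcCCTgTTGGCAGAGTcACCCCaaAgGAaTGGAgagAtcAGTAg
Cox7b2: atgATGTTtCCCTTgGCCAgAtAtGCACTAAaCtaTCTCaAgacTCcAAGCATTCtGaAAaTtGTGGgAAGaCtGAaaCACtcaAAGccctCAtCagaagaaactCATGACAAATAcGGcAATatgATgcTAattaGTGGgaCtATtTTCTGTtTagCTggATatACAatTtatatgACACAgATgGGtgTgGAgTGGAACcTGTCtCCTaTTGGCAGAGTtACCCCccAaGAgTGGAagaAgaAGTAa

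The other members higher in testis included assembly factors and Atp5s. Ndufaf3, a complex I assembly factor, stood at 71.7, 72.4 and 70.6 FPKM in testis against 11.4 FPKM to 15.8 FPKM in brain and 3.22 FPKM to 7.74 FPKM in colon (3.15, SE 0.151). Ndufaf2 differed by 1.43 (SE 0.239) and Atp5s by 1.17 (SE 0.179). Of the 8 assembly factors, 4 were higher and 4 lower, where 40.4% of all genes tested were higher and 28.3% lower. With library totals Ndufaf7 (adjusted p = 0.0516) and Ndufaf8 (adjusted p = 0.191, edgeR) were not called. Ndufa13, named after its values were seen, differed by 1.01 (SE 0.186). These genes share exon bases with genes on the opposite strand, and no source used here says whether reads were counted by strand: Ndufaf3 shares 98 bases with Dalrd3, Ndufaf2 shares 1955 with B230220B15Rik, Atp5s shares 693 with Cdkl1 and Ndufa13 shares 375 with Tssk6, a testis kinase gene. Such sharing with the opposite strand holds for 22 of the 93 members, among them Cox5a (267 bases with Gm26631) and Atp5j (229 with Gabpa). The 3 members on the X chromosome, also named after their values were seen, were all lower in testis. Besides Cox7b these are Ndufb11 (-1.46, SE 0.241), a complex I membrane arm subunit, at 23.2, 20.4 and 32.4 FPKM in testis, and Ndufa1 (-0.79, SE 0.218), at 43.8, 40.1 and 46.7 FPKM. The 80 autosomal subunits had a median of -0.79, with 6 higher (5 without Cox8c) and 48 lower against the same background.

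**Figure D4:**
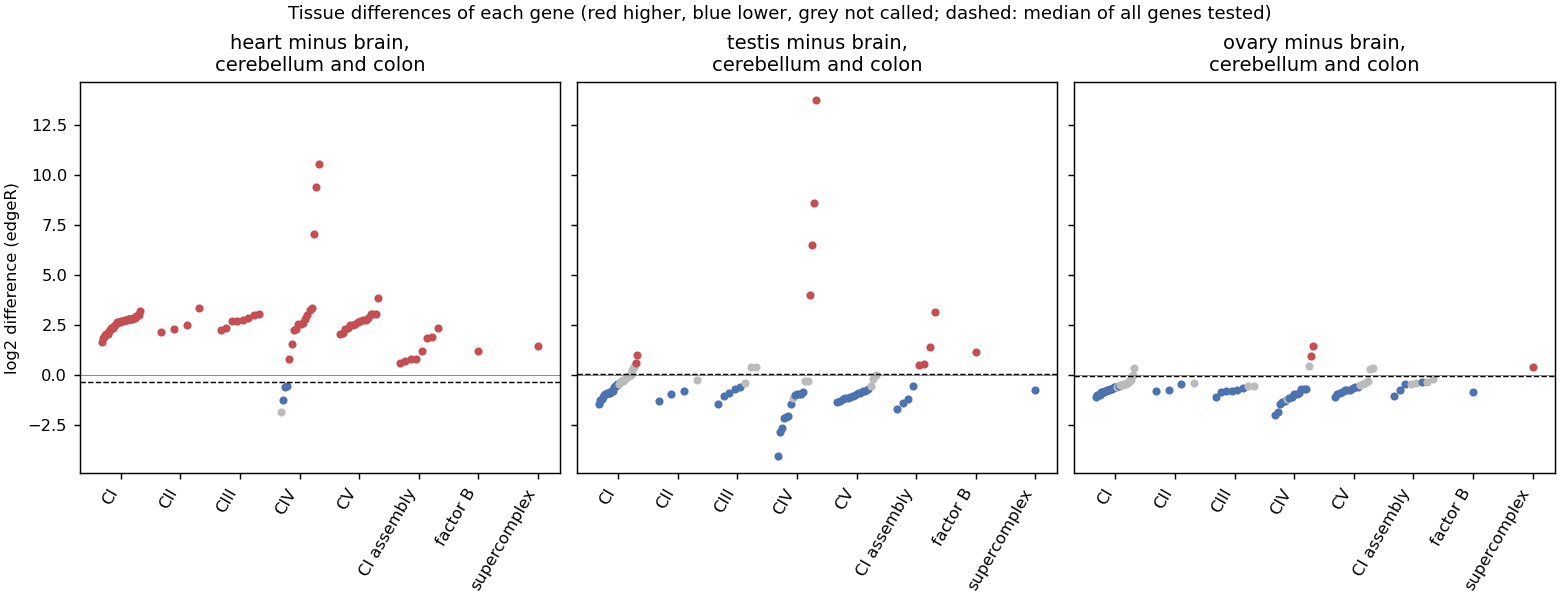
Log2 difference of each gene by edgeR in heart, testis and ovary, each against brain, cerebellum and colon, grouped by complex, with red for called higher, blue for called lower and grey for not called. The dashed line is the median of all genes tested, and Cox8c in the heart and ovary panels and Cox7b2 in the ovary panel are left out because one side had almost no counts.

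In ovary most members were lower than in the somatic tissues. Against brain, cerebellum, heart and colon, 2 members were higher and 82 lower, where 24.0% of all genes tested were higher and 19.0% lower, and the median log2 difference was -1.25. The 2 became 1 when any of 7 libraries was left out (female brain replicate 1, ovary replicate 2 or 3, male brain replicate 2, male cerebellum replicate 1 or 3, or male heart replicate 1) and 4 with library totals. Without heart in the reference, again a choice made after seeing the data, 3 were higher and 58 lower (background 24.0% and 23.0%), with a median of -0.68. With library totals in place of TMM this became 8 higher and 38 lower, with a median of -0.33 for the members and 0.22 for all genes tested, against -0.03 for all genes with TMM. The 3 were Ndufa4l2 (1.47, SE 0.243), Cox6b2 (0.96, SE 0.156) and Cox7a2l (0.42, SE 0.165). The call of Cox7a2l was lost without ovary replicate 1 (adjusted p = 0.09 by edgeR), ovary replicate 2 (0.211) or male cerebellum replicate 2 (0.0502), and with a library code block (0.0854). Cox7a2l, which helps to join complexes III and IV, stood at 225, 229 and 175 FPKM in ovary and at 60.4, 57.5 and 63.2 FPKM in testis. Cox5a, a matrix-side subunit of complex IV, stood at 51.0, 52.7 and 44.4 FPKM in ovary, below 87.7 FPKM to 126 FPKM in brain and 147 FPKM to 260 FPKM in colon. Its log2 difference was -1.85 (SE 0.265), against -1.11 (SE 0.276) for Cox5b. In testis Cox5a was not called (-0.28, adjusted p = 0.302 by edgeR's quasi-likelihood test), but with library totals it was called lower there too (-0.57, adjusted p = 0.00563). Cox7b (-1.46, SE 0.280) and Cox8a (-1.32, SE 0.197) were also lower in ovary.

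Colon was lower than the reference when heart was part of it and mixed when it was not. Against brain, cerebellum and heart, 3 members were higher (Cox6a1, Cox7a1 and Sdhd; 1 without female colon replicate 2) and 74 lower, where 30.6% of all genes tested were higher and 31.6% lower. Against brain and cerebellum alone, 21 were higher and 26 lower (background 31.2% and 39.0%), with a median of -0.15, against -0.15 over all genes tested. These counts were 29 and 17 with RLE scaling (median 0.07), 30 and 17 with DESeq2, and 9 higher without female colon replicate 2 and 17 lower without testis replicate 2. Here Cox7a1 (3.46, SE 0.266), Sdhd (1.32, SE 0.130), a membrane anchor of complex II, and Uqcrfs1 (1.12, SE 0.152), the Rieske iron-sulfur protein of complex III, were higher. Cox6a2 (-4.13, SE 0.523), Cox7b2 (-3.16, SE 0.616), Atp5s (-1.71, SE 0.176) and Ndufaf5 (-1.66, SE 0.146) were lower. By complex, 2 of 36 were higher and 13 lower in complex I, and 3 of 4 higher and 1 lower in complex II. In complex III 4 of 8 were higher, in complex IV 7 of 19 higher and 5 lower, and in complex V 5 of 16 higher. No subunit of complex III or V was lower. The shares of complex I lower (36.1%) and of complex V higher (31.2%) were near those over all genes tested (39.0% and 31.2%). Without female colon replicate 2, 1 of complex I was higher and 16 lower, 3 of complex III were higher and 1 lower, and none of complex V was called. In that fit 1 of complex II and 4 of complex IV were higher. With RLE scaling 9 of complex V were higher, and 8 without testis replicate 2. In both of these fits 5 of complex I were lower in place of 13. No test of a difference between complexes was made. Cox8b was also called higher in colon (0.93, SE 0.414), a call lost in 17 of the 29 fits that left out 1 library (adjusted p from 0.0506 to 0.134 by edgeR), where summed fat cell markers ranged from 46.5 FPKM to 315 FPKM, against 1.92 FPKM to 5.57 FPKM in brain, and their part was not tested.

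Cerebellum and brain differed in few members. In cerebellum 4 were higher and 2 lower, where 10.8% of all genes tested were higher and 15.3% lower, and the median log2 difference was 0.02. With library totals 8 were higher and 1 lower, and with a library code block 3 were higher and 4 lower, with Cox7a2 and Cox7a2l called besides. Cox7b2 (1.77, SE 0.386), Cox7a1 (1.76, SE 0.351), Cox8b (1.41, SE 0.478) and Cox6b2 (1.36, SE 0.161) were higher and Cox6a2 (-1.12, SE 0.325) and Cox8a (-0.55, SE 0.163) lower. All 6 are small subunits of complex IV, and none of the 20 core subunits was called with TMM. The call of Cox8b was lost when any of 5 libraries was left out (female brain replicate 2, female cerebellum replicate 3, male brain replicate 2 or 3, or male cerebellum replicate 3, with adjusted p from 0.0597 to 0.077 by edgeR) and with the library codes of the labels as a block (adjusted p = 0.0542), and that of Cox8a with library totals (adjusted p = 0.0577). The 4 that were higher all stood at 12.5 FPKM or less in each cerebellum library.

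Females and males did not differ detectably in these genes. Over brain, cerebellum, heart and colon, 0 members were called in male against female, where 0.0301% of all genes tested were higher in males and 0.0736% lower. At an unadjusted p under 0.05 there were 5 members, and DESeq2 also called 0. The smallest adjusted p was 0.244, for Cox8b (-1.08, SE 0.311), by edgeR's quasi-likelihood test. In the test of whether the sex difference varied between tissues, 0 members were called (background 0.0167%), 1 had an unadjusted p under 0.05, and DESeq2 called 0.

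Genes that act with the chain were counted in the same comparisons. Of 16 genes of the citric acid cycle and pyruvate dehydrogenase, all were higher in heart (median log2 difference 2.54), led by Idh2 at 5.31 and Pdhb at 3.19, where 23.6% of all genes tested were higher and 29.5% lower. Of 35 other assembly factors, 31 were higher and 1 lower (median 1.33). Without female heart replicate 3 all 16 were higher (median 2.69), with Idh2 at 5.51 and Pdhb at 3.35, and 32 of the assembly factors were higher and 1 lower (median 1.46). The mitochondrially encoded subunits are counted in 3 loci, since neighbouring genes were joined, and all 3 were higher in heart (1.84 to 2.50) and lower in testis against brain, cerebellum and colon (-1.72 to -1.51). Of 12 regulators of mitochondrial gene expression, 10 were higher and 2 lower in heart, and 9 and 2 with library totals, where Tfam was not called (0.11, adjusted p = 0.458 by edgeR). Esrrb, an orphan nuclear receptor, differed by 4.6 (SE 0.339), Tfb2m, a mitochondrial transcription factor, by 1.87 (SE 0.104), and Ppargc1a, the coactivator PGC-1alpha, by 1.31 (SE 0.138). Yy1 (-0.65, SE 0.099) and Nrf1 (-0.26, SE 0.103) were lower. Without female heart replicate 3, Esrrb differed by 4.81, Tfb2m by 1.97, Ppargc1a by 1.47 and Yy1 by -0.71, and the 3 mitochondrial loci by 1.99 to 2.68. The call of Nrf1 was lost without that library (adjusted p = 0.0781 by edgeR), male heart replicate 1 (0.0911) or 2 (0.107) or testis replicate 2 (0.321), with either block (0.0737 and 0.0803) and with no filter (0.0652). In testis, 3 regulators were higher and 5 lower against the same tissues, where 40.4% of all genes tested were higher and 28.3% lower, so the share higher was below that over all genes, and with library totals 1 was higher and 8 lower: Gabpa and Polrmt were then not called (adjusted p = 0.99 and 0.128 by edgeR), and Nrf1 (-0.41), Tfb2m (-0.56) and Twnk (-0.41) were called lower. Gabpa also lost its call with a replicate block (adjusted p = 0.0902) and when any of 10 single libraries was left out (0.0502 to 0.111). With no filter 1 was higher and 6 lower. Gabpa and Polrmt were then not called (adjusted p = 0.437 and 0.0734 by edgeR), and Tfb2m was called lower (-0.43, adjusted p = 0.0148). With a library code block 4 were higher and 5 lower. Ppargc1a (-3.44, SE 0.242) and Ppargc1b (-2.98, SE 0.267) were lower, and Tfam, which packages mitochondrial DNA and takes part in its transcription, was higher (2.30, SE 0.115).

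The promoters of the members were read from RefSeq on GRCm38.p6 as windows of 300 bases around each start, and 74 members matched, with 79 windows. Motifs of factors known to act on these genes were searched on both strands. Members were counted by gene, with a match in any of their windows, and all promoters by window, so the shares are not quite alike. The NRF1 motif GCATGCGC was in the windows of 16.2% of the matched members and in 2.71% of all 32851 promoters, and the ETS motif CCGGAAG, read by GABP, in 24.3% and 8.86%. The ERR motif AAGGTCA was in 10.8% and 4.72%, and the YY1 motif AAGATGG in 14.9% and 6.34%. The median GC content of the member windows was 57.7%, against 52.7% over all promoters, with a median of 19 CpG against 7. The tissue forms that matched (4) had a median of 8.5 CpG. The upstream 250 bases of Cox6a1 and of Cox8b are shown, a ubiquitous gene and a muscle form, with capitals for the motifs found. The first lies at chr5:115348959-115349208, minus strand, and holds NRF1 and ETS motifs, and the second at chr7:140900447-140900696, minus strand, with none of the motifs searched. Cox6a1 is not typical of the 74 matched members, of which 12 hold the NRF1 motif and 18 the ETS motif.
Cox6a1: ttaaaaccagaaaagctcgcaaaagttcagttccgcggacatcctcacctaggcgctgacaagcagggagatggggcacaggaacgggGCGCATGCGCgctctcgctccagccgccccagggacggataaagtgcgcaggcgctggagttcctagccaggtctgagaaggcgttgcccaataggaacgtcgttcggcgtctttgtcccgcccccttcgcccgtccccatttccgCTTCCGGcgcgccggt
Cox8b: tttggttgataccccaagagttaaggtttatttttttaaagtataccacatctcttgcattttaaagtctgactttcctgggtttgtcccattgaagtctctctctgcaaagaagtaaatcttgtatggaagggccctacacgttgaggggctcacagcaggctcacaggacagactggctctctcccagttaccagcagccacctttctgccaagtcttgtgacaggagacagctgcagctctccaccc
A match is a description of the letters and not a measured binding site.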

How the data were processed

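RNA-seq was measured in 29 libraries (10 groups by tissue and sex), with all 29 count columns used and 0 other per-sample columns. The authors deposited whole-number counts per gene, without normalization, over an annotation that joined Iso-seq loci to ENSEMBL genes, and only uniquely mapped reads were retained. Per the submitters' processing notes, FastQC 0.11.8, MultiQC 0.9, HISAT2 2.0.5 and featureCounts 1.6.3 were used with mm10, and the strand setting is not given in the sources used here. The annotation on GRCm38.p6 served for exon lengths, and GENCODE M21 for names. FPKM was computed from the deposited counts per library total and per kilobase of exon union. Differences were tested on counts with edgeR 4.0.16 (R 4.3.3; TMM, 29911 of 55356 rows after filterByExpr, adjusted p under 0.05 by Benjamini-Hochberg over all genes tested), with groups as means and SE as the log2 difference over the root of F. DESeq2 1.42.0, other scalings, no filter, a replicate block and leaving out each library were alternatives. Pairs of related genes were compared by exact permutation over libraries, with 0.5 added to counts. Coding sequences were aligned with mafft 7.526. No pairing was used in the main fit. Libraries of the same sex with the same replicate number did not deviate together (56 pairs, median r -0.000567, 0 over 0.1). Pairs grouped by the library code of the labels had a median r of 0.0141 (53 pairs, maximum 0.2231, 4 over 0.1). Pairs of the same sex with other numbers had a median r of 0.00216 (112 pairs, maximum 0.2791, 6 over 0.1). No library was a copy of another. Genes named in the text were the paired genes, the core subunits, members with a separate role, the 4 called members with the largest difference each way and the regulators, besides those said to be chosen later. Values of 1 member are not reported here by name. The members and lists were chosen with earlier results of these data known.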

Additional observations from a re-analysis of the deposited data

Results flagged for a closer look

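Each tissue was examined for a library that lay far from the others, by Dixon's ratio of the gap to the whole range at its 95% critical value. Of 92 groups tested, 13 held such a library, where chance gives about 1 in 20. In heart, female replicate 1 stood at 2624 FPKM for Ndufa4 (next library 1459 FPKM), 42.9 FPKM for Cox7a2 (next 30.1 FPKM) and 0.531 FPKM for Cox7b2 (next 0.0895 FPKM). Female heart replicate 3 stood at 150 FPKM for Cox6a1 (next 82.1 FPKM). In cerebellum, female replicate 3 stood at 164 FPKM for Cox6a1, below the next at 220 FPKM, at 40.5 FPKM for Cox7a2, at 4.51 FPKM for Cox8b and at 0.0806 FPKM for Cox8c. In brain, female replicate 3 stood at 10.4 FPKM for Cox6a2 (next 6.59 FPKM), and female replicate 1 at 0.0848 FPKM for Cox8c, where the other brain libraries had no count. In colon, female replicate 1 had the lowest Atp5g3, at 110 FPKM (next 187 FPKM), and female replicate 2 the highest Cox7b, at 282 FPKM (next 183 FPKM), and the highest complex III sum, at 2076 FPKM (next 1545 FPKM). The single counts behind the Cox8c values of brain and cerebellum are at the limit of detection.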

How the results depend on the processing

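The comparisons gave 45 values, which were recomputed 1509 times under alternatives, and 1468 of these were tallied as the same. Counts were so tallied within a fixed fold, sums within their SD, and ratios with the same sign and call. For single genes, 10007 of 10230 values kept their sign and call, where a missing adjusted p was tallied as kept. Most alternatives left out a single library. The number of members called higher in ovary against all somatic tissues, 2, became 1 with RLE scaling, 4 with library totals, 1 with a library code block and 1 with DESeq2, and ranged from 1 to 2 when single libraries were left out. Leaving out female brain replicate 1, female ovary replicate 2 or 3, male brain replicate 2, male cerebellum replicate 1 or 3 or male heart replicate 1 gave 1. In colon the 3 called higher ranged from 1 (without female colon replicate 2) to 4, and with heart left out of the reference, a choice made after seeing the data, 21 were higher and 26 lower. The fits without heart in the reference were repeated under the other alternatives, also after seeing the data. In ovary 3 higher and 58 lower became 8 and 38 with library totals. In colon 26 lower became 17 with RLE scaling and 17 with DESeq2, and leaving out single libraries gave 9 to 27 higher and 17 to 32 lower. In cerebellum, library totals gave 8 higher and 1 lower, and the library code block 4 lower. The complex sums in heart over brain, cerebellum and colon became 6.154, 5.396, 6.352, 6.568 and 6.292 for complexes I to V with TMM library sizes, those in testis 0.7884, 0.5222, 0.7354, 0.6348 and 0.5528, and those in ovary 0.6603, 0.6152, 0.5984, 0.5107 and 0.6674. The ovary ratio of complex II was 0.7618 with mitochondrially encoded genes left out of the totals and 0.7653 to 0.79 with single libraries left out, and the testis ratio of complex IV then ranged from 0.5078 to 0.5355. Among the genes named by rule, those lower in colon against brain, cerebellum and heart whose difference was positive without heart were Atp5c1 (0.1316), Atp5g2 (0.2843), Atp5g3 (0.1606), Cox4i1 (0.1071), Cox6b1 (0.30), Cox8b (0.9348), Ndufa4l2 (0.1489), Sdhb (0.416), Sdhc (0.4114) and Uqcrc2 (0.539). With somatic libraries alone as the others, the sign of the heart ratio of Cox8c to Cox8a turned (-1.383 to 0.5923), a value with no meaning as a difference because Cox8c had no count in heart and the 0.5 added sets it. The heart ratio of Ndufa4l2 to Ndufa4 became 0.1251, and the testis ratio of Atp5g1 to Atp5g3 -0.0457. The cause was not tested, apart from the change of reference tissue itself. The replicate block gave 88 higher and 3 lower in heart, 8 and 75 in testis, 2 and 81 in ovary, 3 and 74 in colon, 4 and 2 in cerebellum and 0 and 0 between sexes, and without heart in the reference 9 and 57 in testis, 3 and 39 in ovary and 19 and 26 in colon, while no replicate number correlated over 0.1 between same-numbered libraries. Genes at a few counts outside 1 tissue (Cox8c, Cox7b2) are limited by depth, and male heart by its 2 libraries.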
